A study of Mus musculus with 6 samples.

Results

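The netrin, Slit, Robo and Unc5 genes measured here were Ntn1, Ntn4, Neo1, Dcc, Unc5b, Unc5c, Slit2, Slit3, Robo1 and Robo2, 10 of 18193 genes named on the array. They were read by 24 of 45101 probe sets, taken as all those that the platform annotation gives to one of these genes alone. The set was selected on the genotype comparison of these same arrays, in which Ntn1 stood among the lowest unadjusted p-values. Differences between the genotypes are therefore given for these genes as a description, without a test. Whole kidneys of E13.5 mouse embryos were profiled on Affymetrix MOE430.2 arrays, 3 of genotype Fz4-/- and 3 of genotype Fz4+/+, and litters 1, 2 and 3 each gave 1 sample of each genotype. Fzd4 encodes Fz4, a frizzled receptor that binds Wnt proteins and Norrin. How the Fz4 allele was made, the strain, and how many embryos a sample held are not given in the sources used here. P-values thus set a difference against the spread between these samples.

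Netrins and Slits are secreted guidance cues first studied in growing axons. Netrins bind Dcc and its relative neogenin (Neo1), which mediate attraction or adhesion, and Unc5 receptors, which mediate repulsion. Slits bind Robo receptors and mostly repel. In the embryonic kidney, Slit2 made by the nephric duct and ureteric bud acts through Robo2 in the mesenchyme to restrict where Gdnf, the ligand that draws out the ureteric bud, is expressed. Netrin-1 is known as a product of the kidney's stromal cells, and Unc5b as a receptor of endothelial cells.

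The median RMA signal of the arrays lay between 6.62 and 6.74 log2. RMA summarises the probes of a probe set into 1 log2 value and makes the arrays' distributions nearly equal. In the Fz4-/- arrays the Fzd4 probe set 1434756_at read 3.58 to 6.22, against 10.31 to 11.21 in the Fz4+/+ arrays. Fzd4 1419301_at read 4.05 to 5.05 against 7.53 to 8.48. Fzd4 1449416_at was at low signal in both genotypes and overlapped, at 2.93 to 3.17 against 3.03 to 3.11. Kidney markers were well represented. All 9 measured nephron progenitor genes and all 10 stromal genes lay above the signal filter described next, as did 10 of 11 ureteric bud genes. The first principal component held 70.8% of the variance and set both arrays of litter 3 (48.7 and 70.1) apart from the others (-48.9 to -0.0980). The Fz4+/+ array of litter 2 was alone on the second, at -32.7 against -10.5 to 20.1. In whole kidneys, fewer cells of a type and less RNA per cell cannot be told apart.

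A probe set was tested where its mean over all 6 arrays reached the 40th percentile, 5.89 log2, and 17 of the 24 guidance probe sets, from 9 of the 10 genes, did so. Both Ntn4 probe sets fell below. The probe sets of these genes nearest to that level were Robo1 1445549_at, at a mean of 5.77 just below it, and Dcc 1422162_at, at 6.47 just above. Signals of different probe sets are not on a common scale, so levels are compared only within a probe set.

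**Figure D1:**
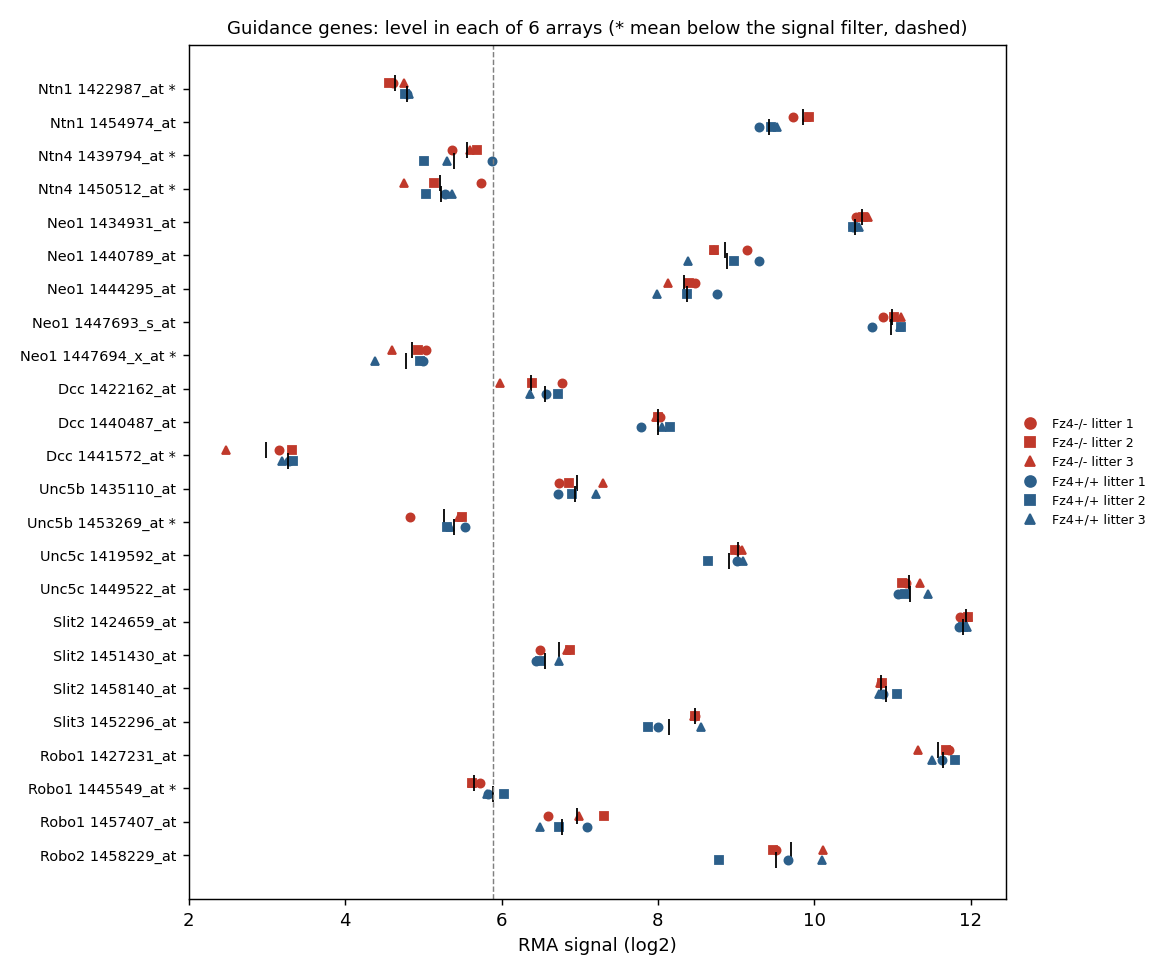
RMA signal (log2, x axis) of all 24 probe sets of the 10 genes (y axis) in each array, red for Fz4-/- and blue for Fz4+/+, with a marker shape for each litter and a black tick at each genotype's mean of 3. The dashed line is the signal filter at 5.89 log2. On Ntn1 1454974_at the red points (9.73 to 9.94) lie above the blue ones (9.29 to 9.53), whereas all other tested probe sets overlap.

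Among the ligands, Ntn1, which encodes netrin-1, read higher in every Fz4-/- array on its brighter probe set. On 1454974_at the Fz4-/- arrays of litters 1 to 3 read 9.73, 9.94 and 9.90 log2, and the Fz4+/+ arrays read 9.29, 9.45 and 9.53. The lowest Fz4-/- array was thus above the highest Fz4+/+ array. The difference was 0.43 ± 0.12 (SE, n = 3 per genotype), and within litters 1 to 3 it was 0.44, 0.49 and 0.38. This probe set ranked 23 of 27022 by limma's unadjusted p, 0.0101, which is the value that brought the gene into the set, and its adjusted p was 0.999988. Genotype accounted for 84.1% of the sum of squares of this probe set over the 6 arrays and litter for 15.0%. These shares restate the values by which the gene was chosen and add no support to the difference.

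The other Ntn1 probe set, 1422987_at, ran the other way. It lay below the filter and read 4.61, 4.56 and 4.76 in the Fz4-/- arrays of litters 1 to 3 and 4.79, 4.76 and 4.81 in the Fz4+/+ arrays. Here every Fz4-/- array was the lower, by -0.15 ± 0.11 (SE, from the fit without the filter), although the highest Fz4-/- value (4.7593) and the lowest Fz4+/+ value (4.7602) nearly met. The statement that Ntn1 read higher thus rests on 1 of its 2 probe sets. The level of renal stroma, the cells that netrin-1 marks, was given by a list of 10 genes that includes Foxd1 and Pdgfra and not Ntn1. The mean log2 signal of that list was 10.95 to 11.10 in the Fz4-/- arrays and 10.83 to 11.12 in the Fz4+/+ arrays, a difference of -0.0060. A list of smooth and skeletal muscle held 10 genes, 1 of them below the filter. Its mean log2 signal was 7.33, 6.73 and 7.36 in the Fz4-/- arrays of litters 1 to 3. In the Fz4+/+ arrays it was 7.54, 7.98 and 7.40, a difference of -0.50. The genotypes did not overlap, but the gap was widest in litter 2, and the arrays of litter 3 nearly met (7.3556 and 7.3969). All 9 tested genes of the list were below 0, against 4573 of 12535 over all genes. The part of stromal or muscle cells in the Ntn1 readings was not tested.

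Across arrays, the genes most like Ntn1 1454974_at were sought by Pearson's r over 5580 genes, each on its brightest tested probe set and with an SD of at least 0.2. Adamts4, a secreted protease of proteoglycans, had the highest r, 0.988, followed by Tmem241 at 0.958, Pced1b at 0.932, the kinase gene Camk1d at 0.926 and Akna at 0.924. These differed between the genotypes by 0.36, 0.54, 0.38, 0.48 and 0.37. Since Ntn1 1454974_at was chosen on its genotype difference, genes picked for likeness to it differ in the same direction by that choice. The 6 arrays share 3 litters and 11 genes exceeded an r of 0.9, so these values describe the arrays only.

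Ntn4 encodes netrin-4, a netrin that binds laminin in basement membranes. Its probe sets were at low signal in all arrays. 1439794_at read 5.01 to 5.88 and 1450512_at read 4.76 to 5.74, with neither separated by genotype. Their litter differences disagreed in sign, at -0.51, 0.68 and 0.30 in litters 1 to 3 for the former and 0.46, 0.10 and -0.61 for the latter.

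Slit2, the ligand of Robo2 in the early kidney, was read by 3 tested probe sets, 1 of which had the narrowest range of all 24 over the arrays. On that one, 1424659_at, it read 11.87, 11.97 and 11.97 log2 in the Fz4-/- arrays of litters 1 to 3 and 11.85, 11.90 and 11.95 in the Fz4+/+ arrays, a range of 0.13. The genotypes overlapped, with a difference of 0.04 ± 0.10 (SE). On 1458140_at all but 1 array lay between 10.82 and 10.88, and the Fz4+/+ array of litter 2 read 11.05. On the dimmer 1451430_at the difference was 0.18 ± 0.15 (SE), positive in all 3 litters at 0.05, 0.39 and 0.10, and the values overlapped.

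Slit3, a second Slit, showed the next largest difference among the tested probe sets after Ntn1. On 1452296_at, its sole probe set, the Fz4-/- arrays of litters 1 to 3 read 8.48, 8.47 and 8.46 log2 and the Fz4+/+ arrays read 8.0, 7.87 and 8.55. The Fz4-/- arrays were nearly equal, at an SD of 0.0062 (n = 3) against 0.36 in Fz4+/+, and the Fz4+/+ array of litter 3 was the highest of all 6. The difference was 0.33 ± 0.19 (SE), made of 0.47 in litter 1, 0.60 in litter 2 and -0.08 in litter 3. It was 0.53 without the Fz4+/+ array of litter 3, 0.54 without litter 3 and 0.20 without the Fz4+/+ array of litter 2.

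Slit2 and Slit3 are also the hosts of a microRNA pair. By the RefSeq gene spans of GRCm38.p6, Mir218-1 lies within Slit2 and Mir218-2 within Slit3. MiR-218 is known to repress Robo1 and Robo2, so each Slit gene carries a regulator of the receptors. The mature sequences below, from RefSeq, are shown because both hairpins yield the same 5p product, whereas their 3p products have different seeds; capitals mark the seed, bases 2 to 8. The 5p arm spans chr5:48223966-48223986 (+) in Slit2 and chr11:35616840-35616860 (+) in Slit3. The microRNAs themselves were not measured here.
mmu-miR-218-5p: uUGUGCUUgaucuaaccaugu
mmu-miR-218-1-3p: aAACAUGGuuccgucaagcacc
mmu-miR-218-2-3p: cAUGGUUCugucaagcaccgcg

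Over the 6 arrays the Slit2 probe sets spanned 0.13, 0.44 and 0.23 log2 and that of Slit3 spanned 0.67, on scales that are not shared. The 250 bases before the start of Slit3, chr11:35121206-35121455 (+, GRCm38.p6, RefSeq), are shown with each CG dinucleotide in capitals, because Slit3 is the tested gene with the largest difference after Ntn1 and has a promoter entry.
Slit3: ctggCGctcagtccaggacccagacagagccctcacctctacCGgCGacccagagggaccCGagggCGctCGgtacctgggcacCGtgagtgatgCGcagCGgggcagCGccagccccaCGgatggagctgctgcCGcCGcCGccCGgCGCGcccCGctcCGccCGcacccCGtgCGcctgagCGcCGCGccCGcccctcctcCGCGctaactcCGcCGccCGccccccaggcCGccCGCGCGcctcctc
This stretch holds 35 CG dinucleotides and is 78.8% G and C, against medians of 6 and 52.4% over the same window of 32851 RefSeq promoters. That is not particular to Slit3. The window of Neo1 held 45 and was 83.2% G and C, and that of Slit2 held 25 and was 69.6%. A window of Robo2 held 4 and was 44.8%. Fz4 signals in part through beta-catenin and TCF/LEF factors, whose core motif was searched as CTTTGAA or CTTTGAT on both strands. No match lay in the window of Slit3 or in any of the 10 windows found for 8 of the genes, and 7.48% of all promoters held one. Ntn1 and Dcc had no entry.

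Among the netrin receptors, Neo1, which encodes neogenin, had 5 probe sets, and these fell into patterns that ran against each other over the litters. On 1434931_at the Fz4-/- arrays of litters 1 to 3 read 10.53, 10.62 and 10.69 log2 and the Fz4+/+ arrays 10.49, 10.49 and 10.57. Each Fz4-/- array exceeded its litter mate, and the difference was 0.09 ± 0.10 (SE) with overlapping values. On 1447693_s_at the readings were 10.88, 11.01 and 11.11 against 10.74, 11.12 and 11.09, so both arrays of litter 1 were the lowest.

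The remaining Neo1 probe sets were highest in litter 1. 1440789_at read 9.14, 8.72 and 8.71 log2 in the Fz4-/- arrays of litters 1 to 3 and 9.29, 8.97 and 8.38 in the Fz4+/+ arrays. 1444295_at read 8.48, 8.39 and 8.12 against 8.76, 8.37 and 7.99. On the latter, both arrays of litter 3 were the lowest and both of litter 1 the highest. 1447694_x_at, below the filter, had litter means of 5.01, 4.94 and 4.49. The litter means of 1447693_s_at, at 10.81, 11.06 and 11.10, were ordered the other way. Affymetrix gives the suffix s to probe sets that match several transcripts and x to those prone to cross-hybridise. Genotype differences of the 5 lay between -0.04 and 0.09. With array weights they were -0.44 for 1440789_at, -0.28 for 1444295_at and 0.20 for 1447693_s_at.

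**Figure D2:**
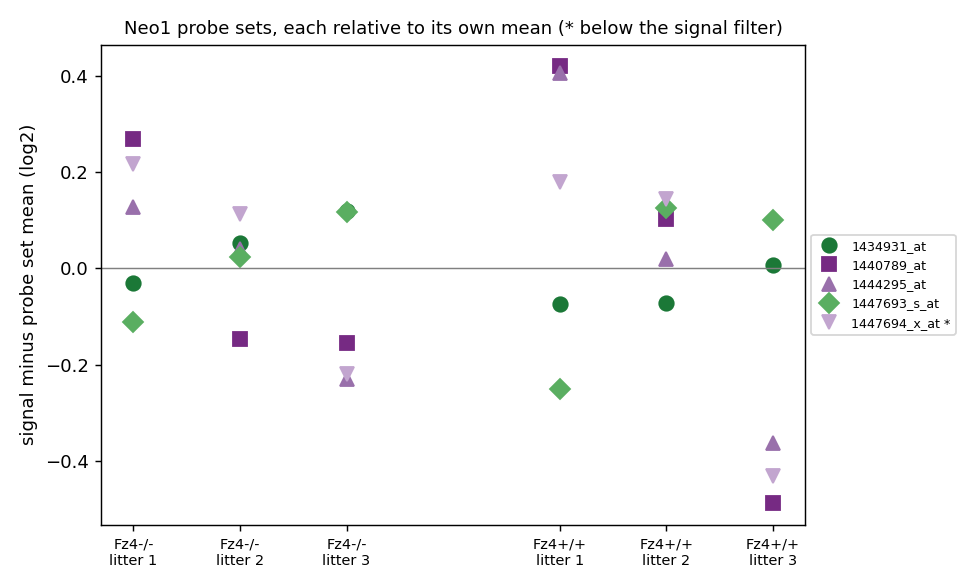
Signal of each Neo1 probe set minus its own mean over 6 arrays (log2, y axis) in each Fz4-/- and Fz4+/+ array (x axis), 1 marker per probe set. In litter 3 the markers of 1440789_at, 1444295_at and 1447694_x_at lie below 0 in both genotypes, and those of 1434931_at and 1447693_s_at lie above it.

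Dcc, the netrin receptor of axons, gave no reading that separated the genotypes. On 1440487_at the arrays of litters 1 to 3 read 8.03, 8.0 and 7.98 log2 in Fz4-/- and 7.79, 8.15 and 8.05 in Fz4+/+, a difference of 0.0048 ± 0.13 (SE). On 1422162_at the readings were 6.77, 6.39 and 5.98 in Fz4-/- and 6.57, 6.73 and 6.37 in Fz4+/+. They overlapped, and the difference was -0.18 ± 0.22 (SE). The Fz4-/- array of litter 3 was the lowest there and also on 1441572_at, where it read 2.47 and the other 5 arrays 3.16 to 3.33. A list of 8 measured genes of neurons, neural crest and chromaffin cells had a mean log2 signal of 6.22 to 6.68 in the Fz4-/- arrays and 6.36 to 7.48 in the Fz4+/+ arrays. Of these, 2 were below the filter, and the part of such cells in the Dcc readings was not tested.

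The Unc5 receptors differed little between genotypes. Unc5b 1435110_at read 6.74, 6.86 and 7.29 log2 in the Fz4-/- arrays of litters 1 to 3 and 6.73, 6.90 and 7.21 in the Fz4+/+ arrays. Litter mates differed by 0.01, -0.04 and 0.08, and litter accounted for 98.5% of its sum of squares. The genotype difference was 0.02 ± 0.20 (SE), an SE that has no litter term and so holds the spread between litters. Its dim probe set 1453269_at read 4.82 in the Fz4-/- array of litter 1 and 5.30 to 5.54 elsewhere.

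Unc5c 1449522_at read 11.17, 11.12 and 11.35 log2 in the Fz4-/- arrays of litters 1 to 3 and 11.08, 11.16 and 11.46 in the Fz4+/+ arrays, with both arrays of litter 3 the highest. The difference was -0.02 ± 0.14 (SE). On 1419592_at 5 arrays lay between 8.99 and 9.08, and the Fz4+/+ array of litter 2 read 8.64. The difference of 0.11 ± 0.14 (SE) became -0.02 without that sample.

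Among the Slit receptors, Robo2 had the widest range of the 24 probe sets over the 6 arrays, 1.33 log2, with overlapping genotypes. Its probe set 1458229_at read 9.51, 9.47 and 10.11 log2 in the Fz4-/- arrays of litters 1 to 3 and 9.66, 8.78 and 10.10 in the Fz4+/+ arrays. Both arrays of litter 3 were the highest and the Fz4+/+ array of litter 2 was the lowest. The difference was 0.19 ± 0.37 (SE), with 0.69 in litter 2 against -0.15 and 0.02 in litters 1 and 3. Without the Fz4+/+ array of litter 2 it was -0.18, and without the Fz4-/- array of litter 3 it was -0.02. The promoter entries used here hold 3 starts for Robo2, none of them at the edge of its RefSeq gene span. Which start this probe set reads was not analysed here.

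The Fz4+/+ array of litter 2 was the lowest for Slit3, Robo2, Unc5c 1419592_at and the dim Ntn4 1439794_at. It was the highest on Slit2 1458140_at, Robo1 1427231_at and 1445549_at, Neo1 1447693_s_at, and Dcc 1440487_at and 1441572_at. Its mean of the muscle list was the highest, 7.98 log2 against 6.73 to 7.54 in the other 5. Its excess of 3' over 5' signal for actin was 0.90 against 0.64 to 0.86 in the other 5. For Gapdh it was 0.8951, just below the 0.8971 of the Fz4+/+ array of litter 3. The part of these in the readings was not tested.

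Robo1 was read by 3 probe sets that did not vary alike. On 1427231_at the Fz4-/- arrays of litters 1 to 3 read 11.72, 11.69 and 11.33 log2 and the Fz4+/+ arrays 11.63, 11.80 and 11.51. Litter 3 was the lowest in both genotypes, where it was the highest for Robo2. The difference was -0.07 ± 0.15 (SE), with overlap. On 1457407_at it was 0.19 ± 0.24 (SE), with -0.50 in litter 1, 0.58 in litter 2 and 0.49 in litter 3. It was 0.02 without the Fz4-/- array of litter 2 and 0.37 without that of litter 1. On 1445549_at, just below the filter, the Fz4-/- arrays read 5.73, 5.62 and 5.62 and the Fz4+/+ arrays 5.82, 6.03 and 5.82, so every Fz4-/- array was the lower, by -0.24 ± 0.11 (SE, from the fit without the filter). Gdnf, whose domain Slit2 and Robo2 limit, read 9.67, 9.88 and 9.81 in Fz4-/- and 9.93, 9.88 and 10.31 in Fz4+/+, with overlap.

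**Figure D3:**
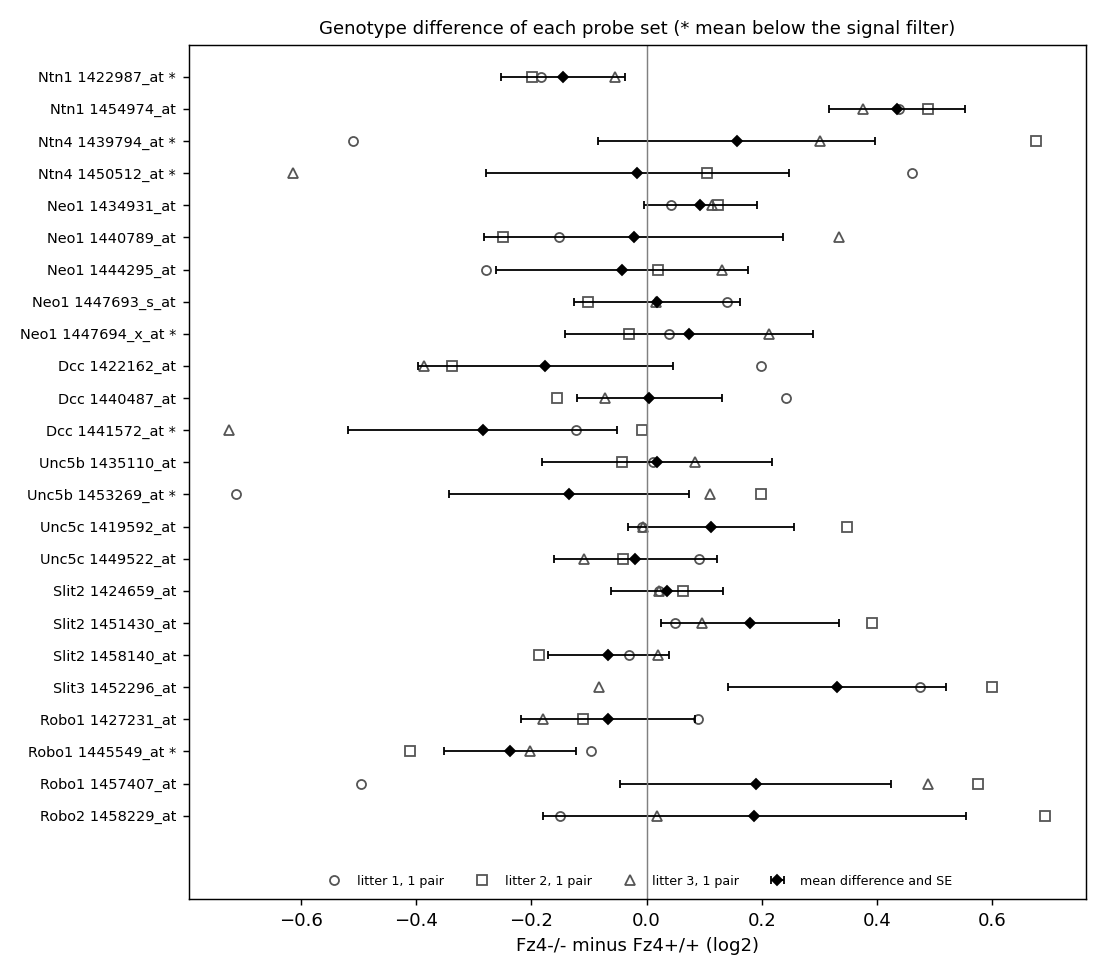
Fz4-/- minus Fz4+/+ (log2, x axis) for each probe set (y axis): filled diamonds with bars are the mean difference and its SE from limma, and open markers are the single pairs of litters 1, 2 and 3. The 3 pairs of Ntn1 1454974_at lie together at 0.38 to 0.49, while those of Robo1 1457407_at run from -0.50 to 0.58.

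Over the whole table limma called 0 of 27022 probe sets between the genotypes at an adjusted p under 0.05, or 0%, and 0 of the 17 guidance probe sets. Among those not called was Fzd4 1434756_at, at 3.58 to 6.22 in Fz4-/- and 10.31 to 11.21 in Fz4+/+. Its difference, -6.16, was the lowest of all tested genes. The absence of calls therefore does not show that no gene changed. At an unadjusted p under 0.05 there were 239 probe sets, or 0.884%, and 1 of the 17, Ntn1 1454974_at. Values did not overlap between the genotypes for 1 of the 17, against 3.64% of all tested probe sets, and for 3 of all 24, against 4.57% of all probe sets. The sign was the same in every litter for 4 of the 17, against 21.5% of tested probe sets. The median difference of the 17 was 0.02 and that of all tested probe sets 0.03. Of the 17, 11 were above 0 and 6 below. Since the contrast entered the choice of Ntn1, nothing is read from these counts.

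Whether the litters differed was tested with genotype as a covariate, a comparison that did not enter the choice of genes. limma's moderated F test called 0 of 27022 probe sets, or 0%, at an adjusted p under 0.05, and 6225, or 23%, at an unadjusted p under 0.05. Of the 17 guidance probe sets 0 passed and 4 had an unadjusted p under 0.05, a share near that of all probe sets. They were Unc5b 1435110_at, Robo2 1458229_at, Neo1 1444295_at and Neo1 1440789_at, with adjusted p of 0.169, 0.192, 0.201 and 0.214. On simulated data this litter test recovered 0% of changes of 1 log2, so the absence of calls does not show that the litters were alike. Litter means of Robo2 were 9.59, 9.13 and 10.11 log2, a range of 0.98. Those of Unc5b 1435110_at were 6.73, 6.88 and 7.25. Without the Fz4-/- array of litter 2 the Robo2 range was 1.36. Litter 2 was then represented by its Fz4+/+ array alone, which had the lowest Robo2 reading, 8.78. The wider range thus rests on 1 array for that litter, and no call is read from it. The median litter range of the 17 was 0.29 log2, against 0.33 over all tested probe sets, and the median share of the sum of squares held by litter was 64.0% against 65.9%.

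**Figure D4:**
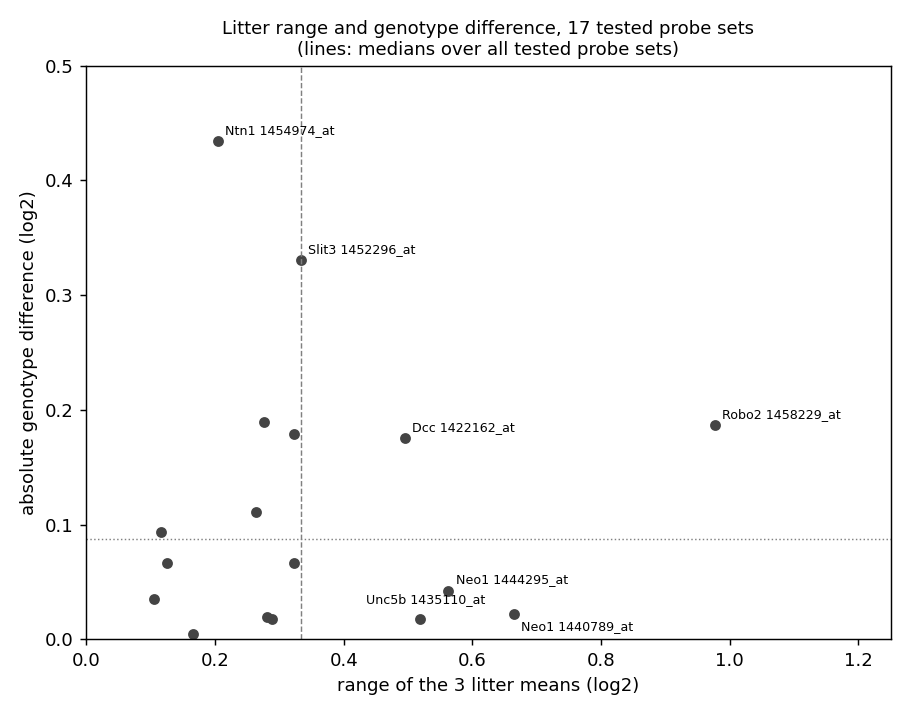
Range of the 3 litter means (log2, x axis) against the absolute genotype difference (log2, y axis) for the 17 tested probe sets, with dashed and dotted lines at the medians over all tested probe sets, 0.33 and 0.09. Ntn1 1454974_at pairs a genotype difference of 0.43 with a litter range of 0.20, and Robo2 1458229_at a difference of 0.19 with a litter range of 0.98.

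Other genes of these pathways are given from lists that hold none of the 10, each gene on its brightest tested probe set. Of 16 further netrin and repulsive guidance molecule ligands and receptors, 14 had a probe set and 6 were tested. limma called 0 higher or lower, with 0 at an unadjusted p under 0.05. On these probe sets all 6 were above 0, with a median of 0.10, where 7962 of 12535 genes were above 0 with a median of 0.03. Of the 6 probe sets of Rgmb 4 were below 0, with -0.32 on 1428430_at, where the genotypes did not overlap, and -0.62 on 1459366_at, where they did. Ntng1, a membrane-anchored netrin, read 7.10, 7.12 and 8.07 log2 in the Fz4-/- arrays of litters 1 to 3 and 6.85, 6.78 and 7.85 in the Fz4+/+ arrays, a difference of 0.27 ± 0.39 (SE). Both arrays of litter 3 were high. Flrt1 and Flrt2, of a family that binds Unc5 receptors, differed by 0.17 and 0.06 and Rgmb, a neogenin ligand, by 0.14.

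Of the other Slit and Robo genes, Slit1 and Robo4 were tested, and limma called 0, with 0 at an unadjusted p under 0.05. Robo4, the Robo of endothelial cells, read 8.35, 8.72 and 8.86 log2 in the Fz4-/- arrays of litters 1 to 3 and 7.83, 8.33 and 8.74 in the Fz4+/+ arrays. Each Fz4-/- array exceeded its litter mate, the values overlapped, and the difference was 0.34 ± 0.26 (SE). A list of 10 endothelial genes that omits Robo4 and Unc5b had a mean log2 signal of 9.19 to 9.22 in the Fz4-/- arrays and 8.98 to 9.17 in the Fz4+/+ arrays, and its part in the Robo4 difference was not tested. Slit1 differed by 0.20 ± 0.21 (SE).

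Of 32 signalling partners of these ligands and receptors, 30 were tested and limma called 0, with 0 at an unadjusted p under 0.05, 19 above 0, 11 below and a median of 0.05, a share near the 7962 of 12535 over all genes. Srgap1 and Srgap2, GTPase-activating proteins that bind Robo, differed by 0.16 ± 0.10 and 0.13 ± 0.13 (SE). Srgap1 read 10.05, 10.04 and 10.02 log2 in the Fz4-/- arrays of litters 1 to 3 and 9.88, 9.77 and 9.97 in the Fz4+/+ arrays, without overlap. Dapk1, a kinase bound by Unc5b, and the tyrosine kinase Abl2 each differed by 0.14.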

How the data were processed

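The deposited values are RMA log2 signals per probe set, as the authors made them per the submitters' processing notes; a version is not given in the sources used here. They were used without further normalisation. RMA compresses differences near background. No detection call was made. The platform annotation named the probe sets, and all 24 guidance probe sets matched RefSeq (GRCm38.p6) by Entrez number, with 0 symbols changed. After 64 control probe sets were left out, 27022 with a mean at or above the 40th percentile were tested.

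The genotype comparison used limma 3.58.1 under R 4.3.3 (lmFit, eBayes, two-sided, Benjamini-Hochberg over all tested probe sets, threshold 0.05). Litters were compared with the moderated F test and genotype as a covariate. On simulated data of 27022 probe sets, with independent noise of the residual spread left after litter and genotype, changes of 0.5, 1, 2 and 4 log2 were recovered at 28%, 60%, 86% and 100% by the genotype fit and 0%, 24%, 68% and 94% with the litter block. The litter test recovered 0%, 0%, 52% and 78%. The measured arrays also vary by litter, which the genotype fit leaves in its error, so its shares do not carry over. The genes, lists, tests and naming rule were chosen with earlier results of these data known. Named were all 10 genes with all their probe sets, up to 4 genes per pathway list with the largest absolute difference, and the 5 genes most like Ntn1. The level of a list is the mean log2 signal of its genes' brightest probe sets. Samples with the same number come from 1 litter, per the labels, so the numbers pair them. The main genotype fit, and every SE of a genotype difference printed, has no litter term, and the litter block is an alternative. Their deviations from their own genotype's mean correlated over probe sets by 0.577, 0.178 and 0.809 in litters 1, 2 and 3, although the Fz4-/- array of litter 1 correlated by 0.609 with the Fz4+/+ array of litter 2. Alternatives covered the filter, normalisation, array weights, the litter block, the genotype term and each sample left out.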

Additional observations from a re-analysis of the deposited data

How the results depend on the processing

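With the litter as a replicate block, limma again called 0 probe sets between the genotypes at an adjusted p under 0.05, and the pairing changed no other call. The number at limma's unadjusted p under 0.05 was 841 with the block and 239 without it. Array weights called 2 and every other alternative run called 0. The count of probe sets called between litters was 3 without the genotype term and from 0 to 1506 with each sample left out in turn, 1506 without the Fz4-/- array of litter 2 and 326 without the Fz4+/+ array of litter 2. Of the 17 guidance probe sets, 0 to 1 were called between litters with each sample left out. The Ntn1 1454974_at difference was 0.37 to 0.50 with each sample left out, 0.40 after quantile normalisation and 0.60 with array weights. Array weights moved 6 of the 17 differences by more than the replicate SD. Besides Ntn1 these were Neo1 1440789_at at -0.44 and 1447693_s_at at 0.20, Dcc 1440487_at at 0.14, and Slit2 1424659_at at 0.10 and 1451430_at at 0.39. Without litter 3, chosen after the data were seen, the Ntn1 1454974_at difference was 0.46. With each sample left out in turn, the genotype difference changed sign at least once for 11 of the 17 and kept it for 6. Those 6 were Ntn1 1454974_at, Neo1 1434931_at, Slit2 1424659_at and 1451430_at, Slit3 1452296_at and Robo1 1457407_at. The number of arrays limits the precision.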
